A study of Mus musculus with 6 samples.

Results

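The MYC, MAX and MXD network is a set of transcription factors of the basic helix-loop-helix leucine zipper class. Its members were taken by gene symbol, and all 10 were present, each through 1 probe set, among 19938 genes tested. They are the MYC genes Myc, Mycl and Mycn, their shared partner Max, the antagonists Mxd1, Mxd3, Mxd4, Mxi1 and Mnt, and Mlx, the partner of a parallel branch. MYC proteins bind DNA as dimers with MAX at the E-box and recruit coactivators to genes of growth, ribosome assembly and metabolism. MXD proteins and MNT compete for MAX at the same sites and recruit SIN3 and histone deacetylase corepressors. In myeloid cells Mxd1 is known as a gene that comes on with differentiation, when Myc usually goes down.

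RNA came from bone marrow derived macrophages of C57BL/6 mice and was hybridised to 1-colour Affymetrix arrays (Mouse Gene 1.0 ST). A culture of 7 days with CSF1, also called M-CSF, gave M(CSF1) cells, and the same time with CSF2, also called GM-CSF, gave M(CSF2) cells. Both are growth factors for cells of the macrophage lineage. Each group had 3 arrays, biological replicates by their labels, with no word on separate mice, so the p-values cover only the variation among these samples, some of it perhaps technical. No allele or transgene is named, and no source used here gives the sorting marker.

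Deposited signals are given on the log2 scale, where 1 unit is a 2-fold step, and differences are M(CSF2) minus M(CSF1). A gene is said to rise or fall only where limma, fitted over all genes with Benjamini-Hochberg adjustment, gave an adjusted p under 0.05. Array medians lay between 3.91 and 4.00, and arrays of different groups correlated at 0.954 to 0.959 over all probe sets. As a reference for dim signal, 95% of 1015 olfactory receptor genes, most of which macrophages are not known to use, lay at or below 3.36. Every network member was above that level on all 6 arrays. The macrophage markers Lyz2, Adgre1 and Cd14 were bright in both groups, with means of 10.16 to 12.43. Of 8 macrophage markers 3 were higher in M(CSF2) and 3 lower, with Cd14 at 1.71, Adgre1 at -1.18 and Lyz2 at -0.48 (limma adjusted p of at most 0.0011). The other called markers were Cd68 (0.89) and Csf1r (0.60), which were higher, and Fcgr1 (-1.23), which was lower. Over all genes, 11.9% were called higher and 15.6% lower. In bulk RNA, a change in the share of cells that use a gene and a change in RNA per cell cannot be told apart.

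The canonical E-box, CACGTG, is the DNA element that the network's dimers share. It reads the same on both strands and was searched in RefSeq promoter windows (GRCm38.p6) running from 250 bases before to 50 bases after each gene start. The motif was found in 4 of the 9 members with a window, Max, Mxd4, Mnt and Mlx, against 9.5% of 15614 tested genes with a window. Myc had no window, so its promoter was not searched. Of these 4 genes, Mxd4 fell and the others were not called. The stretches of members that hold it upstream of the start are shown because they carry the network's own element, with the motif in capitals and coordinates on GRCm38.p6.
Mxd4 (chr5:34187890-34187960, minus strand): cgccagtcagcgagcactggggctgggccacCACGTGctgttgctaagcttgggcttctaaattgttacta
Mnt (chr11:74830767-74830840, plus strand): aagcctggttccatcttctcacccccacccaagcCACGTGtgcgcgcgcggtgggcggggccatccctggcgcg
Mlx (chr11:101087216-101087289, plus strand): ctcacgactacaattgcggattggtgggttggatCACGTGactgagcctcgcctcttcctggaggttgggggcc
The motif begins 219 bases upstream of the start in Mxd4, 123 in Mnt and 40 in Mlx. A match is a description of the letters in the window and was not linked to binding here.

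M(CSF2) cells had less Myc and more of the antagonists Mxd1 and Mxi1 than M(CSF1) cells. Myc was 2.19-fold lower (95% interval 1.81 to 2.66), Mxd1 3.13-fold higher (2.62 to 3.75) and Mxi1 3.60-fold higher (3.11 to 4.18). Mxd3 and Mxd4 fell by smaller amounts, so the MXD genes moved in both directions. Max, Mnt, Mlx, Mycl and Mycn were not called. In all, 5 of 10 members were called, 2 higher and 3 lower, against 27.5% of all genes (11.9% higher and 15.6% lower). The median difference of the members was 0.12, beside 0.04 over all genes.

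**Figure D1:**
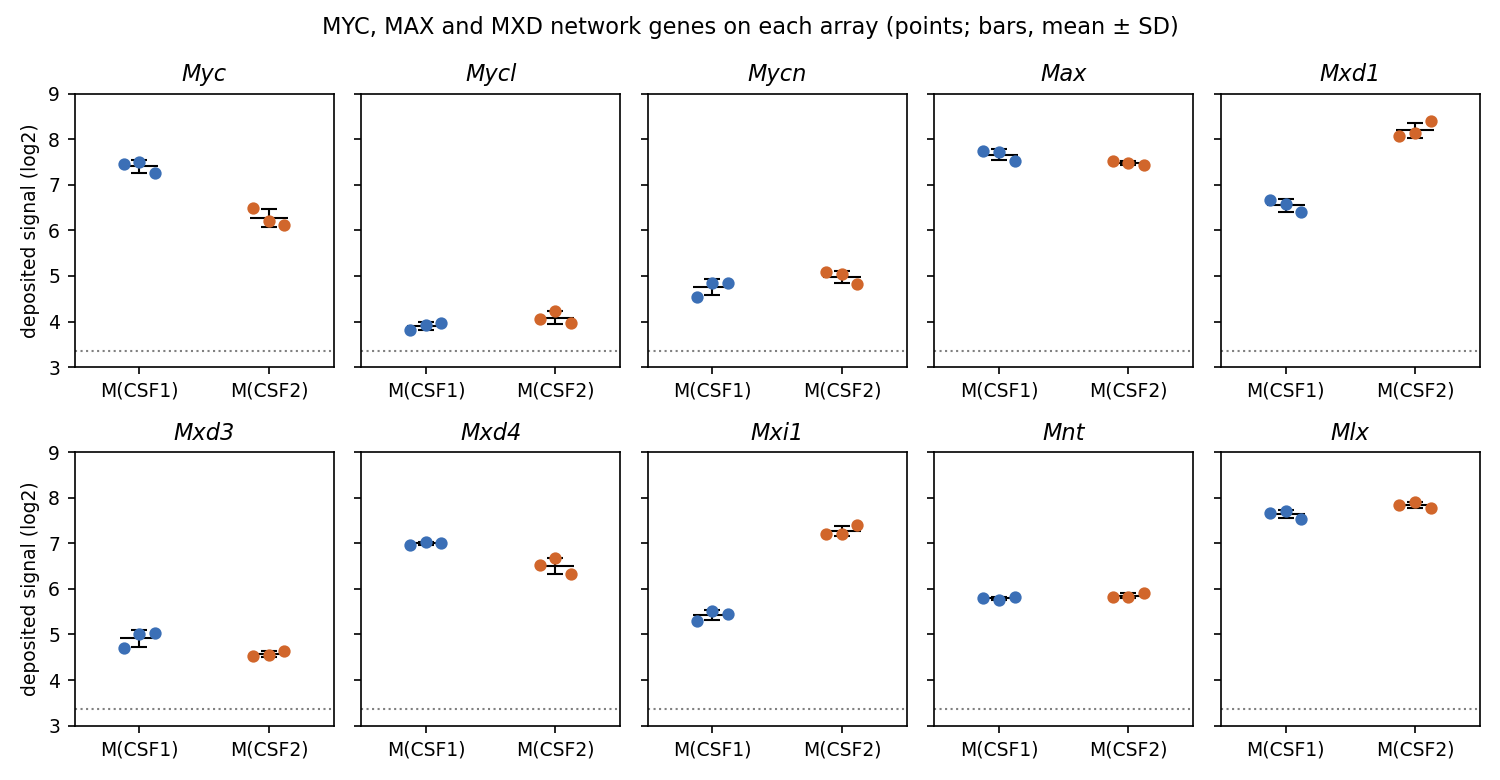
Deposited log2 signal of the 10 network genes on each array, with M(CSF1) in blue and M(CSF2) in orange; points are single arrays, bars are mean ± SD of 3 arrays, and the dotted line is the olfactory receptor level of 3.36. Myc drops and Mxd1 and Mxi1 climb by more than the spread in either group, while Mnt stays between 5.75 and 5.91 on all 6 arrays.

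Among the MYC genes, Myc itself (probe set 10424400) was at 7.46, 7.51 and 7.25 on the M(CSF1) arrays and at 6.49, 6.21 and 6.11 on the M(CSF2) arrays. The groups did not overlap and stood 0.76 apart at their nearest values. Myc fell by 1.13 (SE 0.12, limma adjusted p = 0.00025), from 7.41 ± 0.14 to 6.27 ± 0.20 (SD, n = 3 arrays each). Of all genes, 6.59% differed by more in either direction.

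Mycl, a MYC paralogue that dendritic cells use, was dim, at 3.81 to 3.97 in M(CSF1) and 3.97 to 4.24 in M(CSF2). Its difference of 0.19 was not called (95% interval -0.03 to 0.40, limma adjusted p = 0.189). Mycn, the paralogue best known from neural tissue and early progenitors, overlapped between groups, at 4.55 to 4.86 and 4.82 to 5.08. Its difference was 0.22 (95% interval -0.04 to 0.49, limma adjusted p = 0.202). The intervals of both paralogues leave out a fall as large as that of Myc.

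Max, the obligate partner of both arms, was at 7.73, 7.72 and 7.53 in M(CSF1) and 7.51, 7.48 and 7.44 in M(CSF2). The groups lay side by side with a gap of 0.01, and the difference of -0.19 was not called (95% interval -0.37 to 0.00, limma adjusted p = 0.14). It passed the threshold without M(CSF1) replicate 3, at -0.25 (adjusted p = 0.0366).

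Of the antagonists, Mxi1 (probe set 10463930), an MXD protein also known as MXD2, was at 5.30, 5.51 and 5.45 in M(CSF1). On the M(CSF2) arrays it was at 7.20, 7.20 and 7.41. Every M(CSF2) value lay at least 1.69 above every M(CSF1) value. Mxi1 rose by 1.85 (SE 0.09, limma adjusted p = 5.7e-06), the largest difference among the members in either direction, and 2.95% of all genes differed by more.

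Mxd1 (probe set 10545921), the founding MXD antagonist, was at 6.66, 6.58 and 6.40 in M(CSF1) and at 8.07, 8.13 and 8.39 in M(CSF2). Again no values overlapped, with a gap of 1.40. Mxd1 rose by 1.65 (SE 0.11, limma adjusted p = 2.4e-05), and 3.55% of all genes differed by more. Myc, Mxd1 and Mxi1 were the 3 members called with at least a 2-fold difference, which 7.99% of all genes showed.

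Mxd4, an antagonist found in many differentiated tissues, was at 6.97, 7.03 and 7.01 in M(CSF1) and at 6.51, 6.68 and 6.33 in M(CSF2). The groups were 0.29 apart, with a wider spread in M(CSF2). Mxd4 fell by 0.50 (SE 0.10, limma adjusted p = 0.006), a 1.41-fold difference (95% interval 1.21 to 1.65).

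Mxd3, the MXD gene linked to S phase in dividing cells, was at 4.70, 5.01 and 5.03 in M(CSF1) and at 4.53, 4.54 and 4.64 in M(CSF2). M(CSF1) replicate 1 lay within 0.07 of the highest M(CSF2) array. Mxd3 fell by 0.34 (SE 0.10, limma adjusted p = 0.04). The call ended in 5 of the 6 leave-one-out fits, all but the fit without M(CSF1) replicate 1, at adjusted p from 0.069 to 0.151. In those 5 fits the difference was -0.38 without M(CSF2) replicate 3, -0.33 without M(CSF2) replicate 2, -0.33 without M(CSF2) replicate 1, -0.30 without M(CSF1) replicate 2 and -0.29 without M(CSF1) replicate 3.

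Mnt, a broadly expressed antagonist, was at 5.80, 5.75 and 5.82 in M(CSF1) and at 5.81, 5.82 and 5.91 in M(CSF2). The groups overlapped, and the difference was 0.06 (95% interval -0.10 to 0.21, limma adjusted p = 0.593). Mlx, which pairs with the glucose-sensing factors MLXIP (MondoA) and MLXIPL (ChREBP) and with some MXD proteins, was at 7.67, 7.71 and 7.53 in M(CSF1) and 7.83, 7.90 and 7.77 in M(CSF2). Its groups were 0.07 apart and its difference of 0.20 was not called (95% interval 0.02 to 0.38, limma adjusted p = 0.105). After quantile normalization Mlx was called, at 0.27 (adjusted p = 0.0298). Groups did not overlap for 8 of 10 members, 4 in each direction, against 38.9% of all genes.

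**Figure D2:**
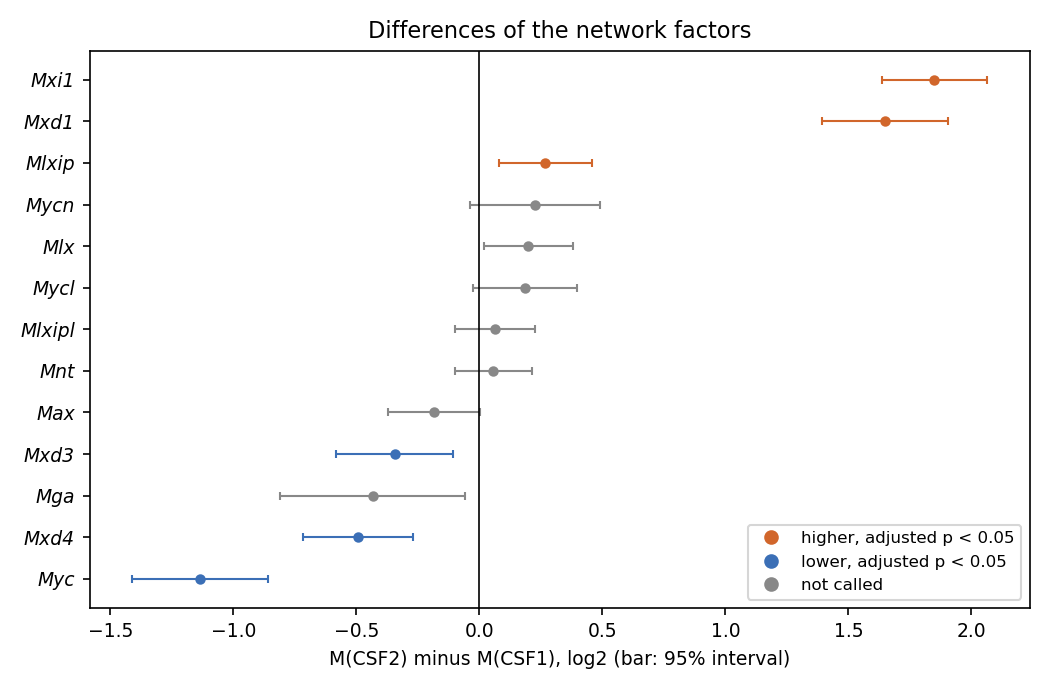
Differences (M(CSF2) minus M(CSF1), log2) of the 10 network genes and 3 further network factors, with 95% intervals from limma; orange marks called rises, blue called falls and grey no call. Mxi1 and Mxd1 stand alone near 1.85 and 1.65, Myc lies at -1.13, and the other 10 genes lie between -0.50 and 0.27.

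Of the 3 further factors, Mlxip was at 6.96, 6.93 and 6.76 in M(CSF1) and at 7.16, 7.08 and 7.21 in M(CSF2). It rose by 0.27 (SE 0.08, limma adjusted p = 0.0436), but the call ended in each of the 6 leave-one-out fits, at 0.21 to 0.31. It ended also with arrays centred on their medians (0.22, adjusted p = 0.14), with a variance trend (adjusted p = 0.0607), with ordinary least squares (adjusted p = 0.0874) and with the replicate number as a block (adjusted p = 0.103). Mlxipl gave 0.06 (limma adjusted p = 0.561). Mga, a MAX partner of the repressive PRC1.6 complex, was lower on every M(CSF2) array (4.79 to 5.12 against 5.21 to 5.75), and its difference of -0.43 was not called (limma adjusted p = 0.092). With dim genes left out Mga was called, at the same difference (adjusted p = 0.0388).

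The proteins that MYC and the MXD factors recruit were covered by a pair of short lists. Of 9 measured MYC coactivators, 3 fell and none rose (median -0.21), and the called share of 33.3% was near the 27.5% of all genes. Kat2a (GCN5), a histone acetyltransferase, fell by 1.09 (SE 0.11, limma adjusted p = 0.0002), from 7.10 to 7.28 on the M(CSF1) arrays to 5.93 to 6.31 on the M(CSF2) arrays. Ruvbl1, an ATPase of chromatin remodelling complexes, fell by 0.36 (limma adjusted p = 0.0116). That call ended without M(CSF1) replicate 2, at -0.34 (adjusted p = 0.0539).

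Among 5 measured MXD and MNT corepressors, 2 fell and none rose (median -0.10), beside 15.6% of all genes called lower. Hdac2, a histone deacetylase, was at 7.02, 6.96 and 6.64 in M(CSF1) and at 5.45, 5.07 and 5.63 in M(CSF2), with no overlap. It fell by 1.49 (SE 0.16, limma adjusted p = 0.00031). The scaffold Sin3a fell by 0.73 (SE 0.15, limma adjusted p = 0.0083), a call lost with ordinary least squares (adjusted p = 0.0787).

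Genes for proteins that bind MYC or govern its turnover were called in 11 of 15 cases, 8 lower and 3 higher (median -0.48). Of all genes, 27.5% were called, 15.6% lower and 11.9% higher. The mitotic kinases Plk1 (-2.37, limma adjusted p = 6.3e-06) and Aurka (-2.05, adjusted p = 3.3e-05), which can stabilise MYC proteins, led the falls. Cip2a, an inhibitor of the phosphatase that destabilises MYC, fell by 1.33, the nucleolar deubiquitinase Usp36 by 0.90, the ubiquitin ligase Huwe1 by 0.64 and the kinase Gsk3b by 0.61. Cip2a was below the olfactory receptor level in M(CSF2), at a mean of 2.58. The Gsk3b call ended without M(CSF1) replicate 1 (-0.55), without M(CSF1) replicate 2 (-0.61) and without M(CSF2) replicate 1 (-0.62), at adjusted p from 0.0672 to 0.0819, and with ordinary least squares (adjusted p = 0.108). Fbxo32, an F-box protein of a ubiquitin ligase, rose by 1.41 (SE 0.11, limma adjusted p = 5.4e-05). Zbtb17 (MIZ1), through which MYC represses genes, rose by 0.28 (limma adjusted p = 0.0473). That call ended in 5 of the 6 leave-one-out fits, all but the fit without M(CSF1) replicate 2, with differences from 0.23 to 0.32. Median centring (adjusted p = 0.112), a variance trend (0.0725), ordinary least squares (0.106) and the replicate block (0.0689) ended it too. Cip2a, Usp36, Huwe1 and Gsk3b were chosen after their values were seen.

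MYC-activated growth genes were mostly lower in M(CSF2), with 23 of 37 measured genes lower, 3 higher and 11 not called. Their median difference was -0.43, beside 0.04 over all genes, of which 15.6% were called lower. At least 2-fold falls were called for 9 of them. Like all lists here, this one was chosen with earlier results of these data known, so its counts are not independent of that choice. Tfrc, the transferrin receptor that brings in iron, was at 7.76, 7.40 and 7.44 in M(CSF1) and at 5.45, 5.31 and 5.26 in M(CSF2). It fell by 2.19 (SE 0.11, limma adjusted p = 6.55e-06), a 4.57-fold difference (95% interval 3.82 to 5.48).

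**Figure D3:**
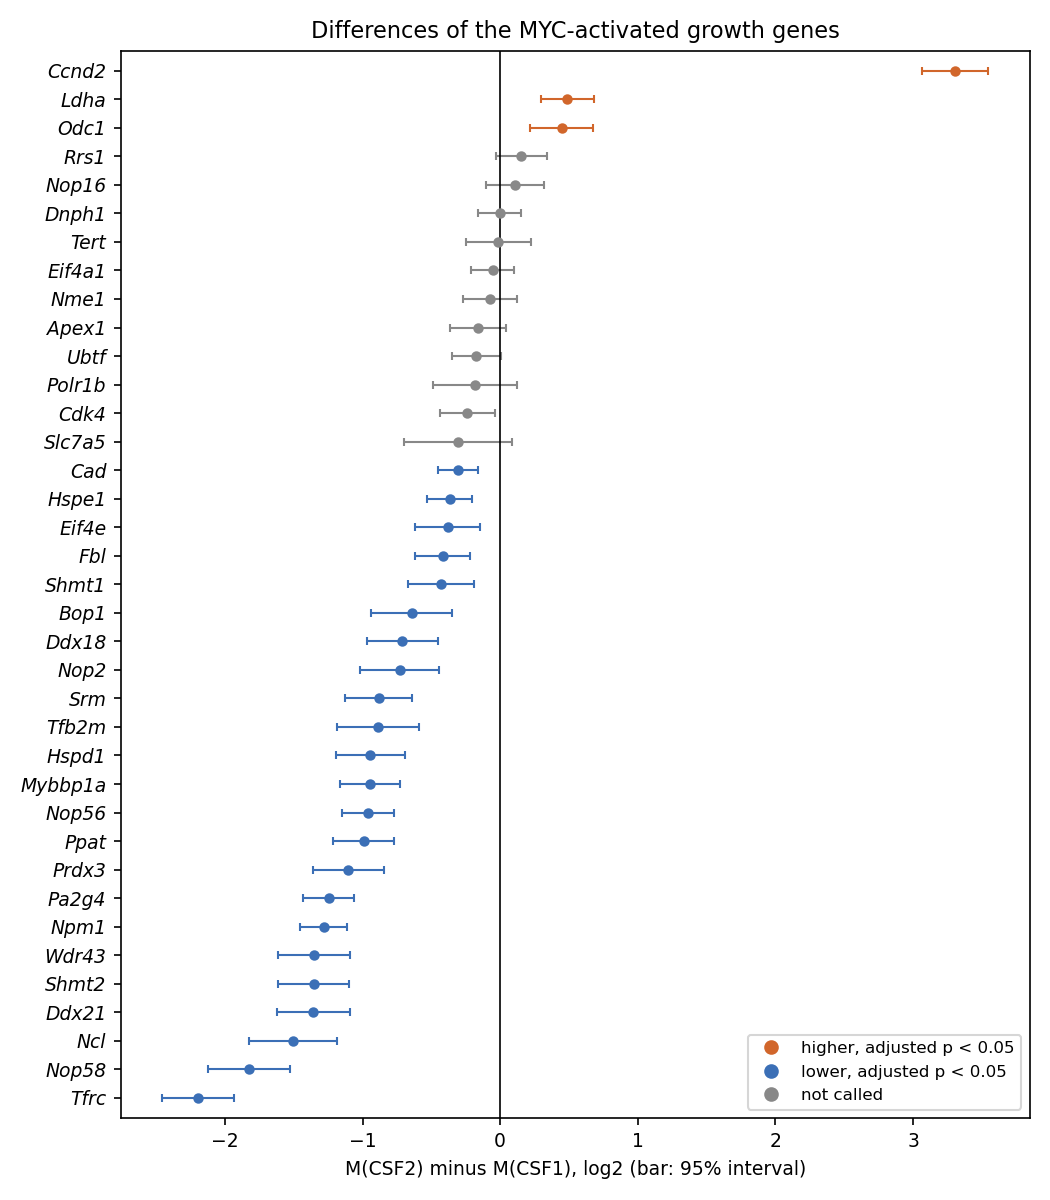
Differences (M(CSF2) minus M(CSF1), log2) of the 37 MYC-activated growth genes in order of size, with 95% intervals from limma; blue marks called falls, orange called rises and grey no call. Falls run from Tfrc at -2.19 to Cad at -0.31, and Ccnd2 at 3.31 stands far from the other genes.

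Sorted by role, a division made after the values were seen, the 13 nucleolar ribosome assembly genes had 11 lower, none higher and a median of -0.95. Beside them, 15.6% of all genes were called lower and 11.9% higher, with a median of 0.04. Nop58, a core protein of the box C/D snoRNP, was at 6.49, 6.37 and 6.16 in M(CSF1) and at 4.37, 4.42 and 4.75 in M(CSF2). It fell by 1.82 (SE 0.13, limma adjusted p = 3.1e-05). Nucleolin, Ncl, fell by 1.51, nucleophosmin, Npm1, by 1.28, the snoRNP protein Nop56 by 0.96 and the rRNA methyltransferase Nop2 by 0.73, at limma adjusted p of at most 0.0029. Both genes of RNA polymerase I transcription in the list, a subunit and a transcription factor, were not called (-0.18 and -0.17).

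In the same division by role, the 8 nucleotide, polyamine and one-carbon synthesis genes had 5 lower and 1 higher. For comparison with this paragraph's counts, 15.6% of all genes were called lower and 11.9% higher. Shmt2, the mitochondrial serine hydroxymethyltransferase, fell by 1.36, Ppat, the first committed enzyme of purine synthesis, by 0.99 and the spermidine synthase Srm by 0.88, at limma adjusted p of at most 0.00048. Odc1, which makes putrescine and is a classical MYC target, went the other way and rose by 0.45 (SE 0.10, limma adjusted p = 0.0113). The Odc1 call ended without M(CSF1) replicate 2, at 0.39 (adjusted p = 0.0547), with the mean of its probe sets (adjusted p = 0.0574) and with ordinary least squares (adjusted p = 0.0638). All 4 genes of mitochondrial proteins fell, with the chaperone Hspd1 at -0.94 (limma adjusted p = 0.00041).

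Eif4e, the cap-binding translation factor, fell by 0.38 by its brightest probe set (limma adjusted p = 0.0252). Its other probe sets gave 0.59 (adjusted p = 0.0217 over all probe sets) and -0.20 (adjusted p = 0.434), so its direction is not settled. The probe set at 0.59 has no curated RefSeq transcript, while those at -0.38 and -0.20 have one. The call also ended in 5 of the 6 leave-one-out fits, all but the fit without M(CSF2) replicate 3, at -0.45 to -0.29 over the 6. Eif4e was named after its values were seen, as were Ncl, Npm1, Nop56, Nop2, Odc1, Srm, Ppat, Shmt2 and Hspd1.

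Among the genes that rose against the list, the D-type cyclin Ccnd2, which carries cells into S phase, was at 5.14, 4.98 and 5.06 in M(CSF1) and at 8.46, 8.16 and 8.48 in M(CSF2). It rose by 3.31 (SE 0.10, limma adjusted p = 8.0e-07), a 9.90-fold difference (95% interval 8.38 to 11.7). Ldha, lactate dehydrogenase, rose from 10.98 ± 0.04 to 11.47 ± 0.13 (SD, n = 3 arrays each, limma adjusted p = 0.003).

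The E-box was found in the promoter windows of 11 of 30 growth genes with a window, 36.7%, beside 9.5% of tested genes. The list was compiled from genes known as MYC targets, so this share is not independent of its choice. Of these 11 genes 5 fell, 1 rose and 5 were not called, and of the 30 genes 19 fell and 2 rose. Over all genes tested, 15.6% were called lower and 11.9% higher. Eif4e, whose direction is not settled, is counted as a fall among both the 5 and the 19. Nop2 and Hspd1, which fell, and Ldha, which rose, are shown next to Arrdc4, a target of the MLX branch that rose, again with the motif in capitals on GRCm38.p6.
Nop2 (chr6:125131789-125131862, plus strand): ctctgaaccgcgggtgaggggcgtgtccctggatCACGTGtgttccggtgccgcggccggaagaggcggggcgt
Hspd1 (chr1:55088284-55088357, minus strand): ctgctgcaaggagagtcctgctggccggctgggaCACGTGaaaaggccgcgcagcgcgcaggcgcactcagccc
Ldha (chr7:46845722-46845795, plus strand): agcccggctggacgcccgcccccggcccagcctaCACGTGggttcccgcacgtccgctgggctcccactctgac
Arrdc4 (chr7:68749392-68749465, minus strand): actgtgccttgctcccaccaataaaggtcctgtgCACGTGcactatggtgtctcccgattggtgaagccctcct
The motif begins 60 bases upstream of the start in Nop2, 80 in Hspd1, 48 in Ldha and 193 in Arrdc4. The Ldha window holds a further CACGTG that begins 145 bases upstream and is not shown. The same 6 letters thus stand before genes that moved in opposite directions.

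Genes known to be repressed by MYC rose in 5 of 9 cases and fell in 1 (median 0.42). Over all genes, 11.9% were called higher and 15.6% lower, with a median of 0.04. Thbs1, the matrix protein thrombospondin, was at 6.89, 6.11 and 5.95 in M(CSF1) and at 11.16, 11.08 and 11.40 in M(CSF2). It rose by 4.90 (SE 0.23, limma adjusted p = 4.7e-06). The myeloid transcription factor Cebpa rose by 1.72 (SE 0.11, limma adjusted p = 1.7e-05) and the CDK inhibitor Cdkn2b, chosen after its values were seen, by 1.19 (SE 0.13, limma adjusted p = 0.00034). Ndrg1, a stress-responsive gene, went against the others, from 11.30, 11.08 and 11.02 in M(CSF1) to 8.03, 8.18 and 8.80 in M(CSF2). It fell by 2.79 (SE 0.19, limma adjusted p = 2.8e-05).

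Targets of the MLX partners had 1 of 8 higher, 2 lower and 5 not called (median -0.19). The called share of 37.5% stood beside 27.5% of all genes. Arrdc4, an arrestin-like protein that limits glucose uptake, was at 6.36, 6.31 and 6.29 in M(CSF1) and at 7.15, 7.13 and 7.25 in M(CSF2), and it rose by 0.86 (SE 0.07, limma adjusted p = 5.9e-05). Its relative Txnip, the other classical MondoA target and chosen after its values were seen, gave -0.06 (limma adjusted p = 0.566). The lipid synthesis genes Fasn and Acaca fell by 1.57 and 0.88 (limma adjusted p = 0.0002 and 0.0041), and the Acaca call was lost with ordinary least squares (adjusted p = 0.0574).

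Proliferation genes were lower beside these lists, in 14 of 16 measured cases, with 1 higher (median -1.89). Among all genes, 15.6% were called lower and 11.9% higher. The replication helicase gene Mcm6 fell by 3.65 and the cyclin Ccna2 by 3.35 (limma adjusted p = 9.7e-07 and 1.8e-06). Top2a, the 1 gene called higher, rose by 1.12 by its brightest probe set, which has no curated RefSeq transcript. It gave -3.04 by the one paired with a curated RefSeq transcript, so its direction is not settled. The brightest probe set is the one in the summed signal. The summed signal of the list ran from 11.57 to 11.75 in M(CSF1) and from 10.04 to 10.09 in M(CSF2). The part of this difference in the falls of Myc, Mxd3, Plk1, Aurka, Cip2a and the growth genes was not tested.

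**Figure D4:**
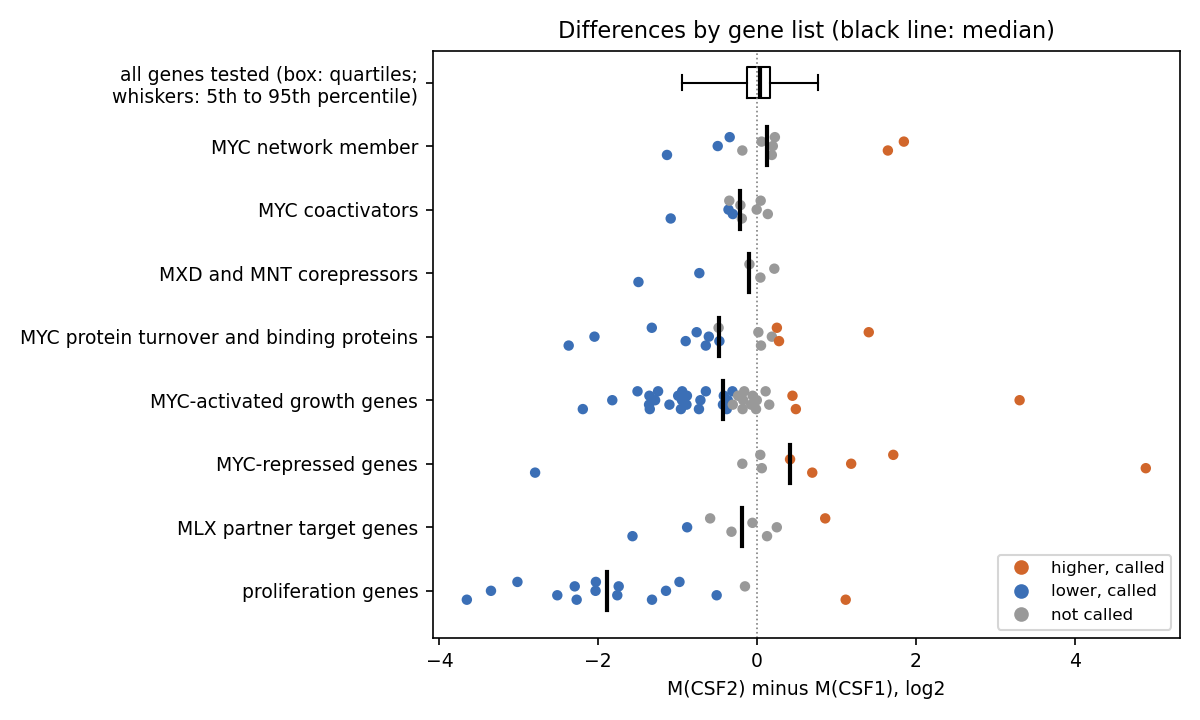
Differences (M(CSF2) minus M(CSF1), log2) of each gene by list, with black lines at list medians; orange marks called rises, blue called falls and grey no call, and the box above shows all 19938 genes (quartiles -0.13 and 0.16, whiskers at -0.94 and 0.76). Growth and proliferation genes lie mostly left of 0, repressed genes mostly right of it, and network members on both sides.

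Marker signal of other cell types also differed between groups. As a background for the counts, 11.9% of all genes were called higher and 15.6% lower. Dendritic cell markers had 3 of 6 higher, led by Itgax (5.05) and Ccr7 (3.93), with Zbtb46 at 0.26 (limma adjusted p = 0.0636) and Xcr1 and the third called gene, Clec9a, below the olfactory receptor level in both groups. The summed signal of this list was 6.92 to 7.18 in M(CSF1) and 11.08 to 11.38 in M(CSF2). Itgax (mean 10.84) and Ccr7 (9.10) made up nearly all of it in M(CSF2), and Flt3 gave -0.08 without a call. Of 9 neutrophil markers 3 were higher, with Mmp8 at 4.44, S100a8 at 2.37 and Camp at 0.60 (limma adjusted p = 0.117, and 0.0446 with dim genes left out). S100a9, the partner of S100a8, gave -0.34 without a call (4.29 to 4.72 in M(CSF1), 4.18 to 4.25 in M(CSF2), limma adjusted p = 0.0717). The summed signal of the list went from 7.65 to 8.16 in M(CSF1) to 11.24 to 11.46 in M(CSF2). Mmp8 (mean 11.04) and S100a8 (8.46) made up nearly all of the M(CSF2) signal. The neutrophil genes Ly6g, Cxcr2, Ngp, Retnlg and Ltf, the third called gene, were below the olfactory receptor level in both groups.

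Progenitor markers had 2 of 9 higher (Gata2 at 2.52 and Kit at 1.32), a called share of 22.2% beside 27.5% of all genes. Mpo gave 0.05 (limma adjusted p = 0.829), and Cd34, Ctsg and Meis1 had means below the olfactory receptor level in both groups. Myb, Elane and Prtn3 were not called, at means of 3.39 to 3.60. The summed signal was 6.76 to 6.93 in M(CSF1) and 7.93 to 8.10 in M(CSF2), where Gata2 (mean 7.06) and Kit (5.63) were brightest. Mast cell and basophil markers had 2 of 6 higher, Hdc at 4.43 and Mcpt8 at 0.36 (limma adjusted p = 0.0469), with Tpsb2 at -0.08 and Cpa3, Mcpt4, Mcpt8 and Ms4a2 below the olfactory receptor level in both groups. The Mcpt8 call ended in 5 of the 6 leave-one-out fits, all but the fit without M(CSF2) replicate 3, with differences from 0.25 to 0.43. The summed signal of that list was 5.57 to 5.77 against 8.37 to 8.59, with Hdc alone at a mean of 8.27 in M(CSF2). No lymphocyte or erythroid marker was called, the brightest being Cd3e, Cd79a and Ms4a1 and Epor, Klf1 and Alas2, all at a mean of at most 4.22 in both groups. The part of these cell types in the network's differences was not tested.

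The genes whose profiles over the 6 arrays lay nearest to those of Myc and Mxd1 were found by the root mean square distance of log2 values, each gene centred on its own mean. Nearest to Myc were Arhgap18 (distance 0.06), Ska2, Plppr2, Map3k8 and Smc4 (0.08), with differences of -1.15 to -1.09. Nearest to Mxd1 were Qsox1 (0.04), Tspan5, Pdlim7, St8sia4 and Ccl5 (0.08), with differences of 1.58 to 1.73. With 2 groups, this nearness mainly says that the genes changed by a like amount.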

How the data were processed

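The deposited table holds log2 signals of 28941 probe sets on 6 arrays, as processed by the authors. Its scale was inferred from the values. The submitters' processing notes name MAS5, and the steps of background correction, normalization and summarisation are not given in the sources used here. Names came from the platform annotation, with symbols updated by Entrez identifier against RefSeq (GRCm38.p6). The 21789 probe sets with 1 gene gave 19938 genes, each through its brightest probe set, with no filter on dim genes.

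Differences were tested 2-sided by limma's moderated linear model (version 3.58.1, R 4.3.3), adjusted by Benjamini-Hochberg over all genes, and the procedure was tested on simulated data. The number of arrays limits the precision. The network members and all gene lists were chosen with earlier results of these data known. Named were all members and further factors, up to 2 called genes per direction and list, the 3 brightest markers per list and the 5 nearest profiles. Further markers were named to give the limits of their lists. List counts cover measured genes, and some listed genes are not reported here. Cdkn1a lay on a shared probe set. Alternatives were quantile normalization, median centring, leaving out dim genes, other uses of several probe sets, other variance models, a block for the replicate number, and fits without each array in turn. Preferring probe sets with a curated RefSeq transcript was chosen after seeing the data.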

Additional observations from a re-analysis of the deposited data

How the results depend on the processing

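The calls of Myc, Mxd1, Mxi1 and Mxd4 held in all 6 fits with an array left out and in the other 9 settings. Over those fits the differences ran from -1.24 to -1.04 for Myc, 1.55 to 1.73 for Mxd1, 1.78 to 1.92 for Mxi1 and -0.58 to -0.39 for Mxd4. With an array left out, 2 members were called higher in every fit and 2 to 3 lower, and the growth genes gave 21 to 23 lower and 2 to 3 higher. Over the same fits, 4254 to 5490 of all 19938 genes were called in either direction. Among 1202 refits of 81 named genes, 50 lost a call, 5 gained one and 14 changed sign. Sign changes were those of Top2a (-0.96 with the mean of its probe sets, -3.04 with the RefSeq probe set), Eif4e (0.0032 with the mean of its probe sets), Txnip (0.005 after quantile normalization) and 3 dim markers near 0. After quantile normalization Mpo gave -0.0019, Klf1 -0.0263 and Alas2 -0.0037, and with median centring Klf1 gave -0.0231 and Alas2 -0.004. With an array left out, Mpo ran from -0.0619 to 0.1482, Klf1 from -0.0559 to 0.105 and Alas2 from -0.0038 to 0.1059. The causes were not tested. Ordinary least squares ended 9 calls of named genes, among them that of Mxd3 (adjusted p = 0.13). Same-numbered arrays did not deviate together (correlations 0.00, -0.04 and -0.25). With the replicate number as a block, 5072 genes were called against 5488, with the members at 2 higher and 3 lower. Depth is limited by 3 arrays per group and by signals near the olfactory receptor level.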
